A study of Mus musculus with 18 samples.

Results

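The step from transitional to follicular B cells was compared between wild-type (WT) and Sh3gl1-/- mice. The comparison takes the change from transitional to follicular cells in Sh3gl1-/- mice and subtracts the same change in WT mice, which is the interaction of genotype and cell state. It uses 12 of the 18 libraries of the series, in 4 groups of 3 libraries. They were chosen by their labels as transitional or follicular B cells taken straight from the animal. Same-numbered transitional and follicular libraries of a genotype deviated together, and a blocked fit takes them as pairs. The main fit treats the 12 libraries as independent. The other 6 libraries came from follicular cells cultured with CD40L and enter a single alternative fit. All 12 libraries are polyA RNA of untreated C57BL/6 mice: transitional WT, transitional Sh3gl1-/-, follicular WT and follicular Sh3gl1-/- cells. The Sh3gl1-/- animals lack the gene in every tissue and the controls were WT littermates, so the deletion acts also in cells other than B cells. The ages of the animals are not given in the sources used here. In the study's flow cytometry transitional cells are B220+CD93+ cells divided by CD23 and IgM, and follicular cells are B220+CD93- cells chosen by CD23 and CD21/35. Differences in the genes of these surface markers between the states therefore follow from the gate.

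Transitional B cells are recent emigrants from the bone marrow that complete selection in the spleen, where survival depends on the cytokine BAFF and on signals from the B-cell receptor. Those that pass become follicular B cells, which are small resting cells that recirculate until they meet antigen. Sh3gl1 encodes endophilin A2, a BAR-domain protein that bends membranes and works in endocytosis, in B cells mainly in routes that do not need clathrin.

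Total expected counts ranged from 12404665 to 16514781 per library, and 14580 of the 51912 listed genes were tested. Values are CPM, that is counts divided by the scaled library size and multiplied by 1000000, and the floor of 3 counts corresponded to 0.182 to 0.242 CPM. Sh3gl1 (GRCm38, chromosome 17 from 56016750 to 56036635) was at 30.4 to 41.2 CPM in the 6 WT libraries and at 0.0735 to 0.816 CPM in the 6 Sh3gl1-/- libraries. The labels of cell state were checked against markers. Cd93, which the gate uses, was at 58.6 to 88.2 CPM in the transitional libraries and 12.1 to 26.9 CPM in the follicular ones. Vpreb3, a surrogate light chain partner of immature B cells that the gate does not use, was at 294 to 573 CPM against 167 to 255 CPM. Rag1 and Rag2, the recombinase of B-cell precursors, reached at most 3.88 CPM in any library and were at 0 in the 6 follicular ones, a count that allows up to that floor. The complement regulator Cd55 rose from transitional to follicular cells in both genotypes, by 0.48 on the log2 scale in WT and by 0.37 in Sh3gl1-/- cells.

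Fewer genes passed the test for a maturation change in Sh3gl1-/- mice, which is a count of calls and not a test of the difference. From transitional to follicular WT cells, 1699 genes rose (11.7%) and 2073 fell (14.2%) at an adjusted p under 0.05, together 25.9% of the genes tested. From transitional to follicular Sh3gl1-/- cells, 540 rose (3.7%) and 978 fell (6.71%), together 10.4%. Without follicular WT library 1 there were 2444 WT calls, and without follicular Sh3gl1-/- library 3 or transitional Sh3gl1-/- library 2 there were 986 and 992 Sh3gl1-/- calls. The 2 comparisons share no library. They had 1125 genes in common, which is 29.8% of the WT calls and 74.1% of the Sh3gl1-/- calls, and 1123 of these moved the same way. Of the 1699 genes that rose in WT, 1461 had a positive change in Sh3gl1-/- cells, with a median of 0.63 on the log2 scale in WT and 0.26 in Sh3gl1-/- cells. Of the 2073 that fell in WT, 1867 had a negative change in Sh3gl1-/- cells, with medians of -0.70 and -0.36. Genes chosen by one genotype look larger there by that choice. Among the 1518 genes chosen by the Sh3gl1-/- calls the medians were 0.56 in Sh3gl1-/- against 0.50 in WT cells for those that rose, and -1.09 against -0.96 for those that fell. Over all genes tested the change was smaller in Sh3gl1-/- than in WT cells for 9087 genes (62.3%). Upper-quartile scaling, which moved the median WT change of all genes from 0.03 to 0.09, gave 2073 WT genes that rose and 1733 that fell.

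**Figure D1:**
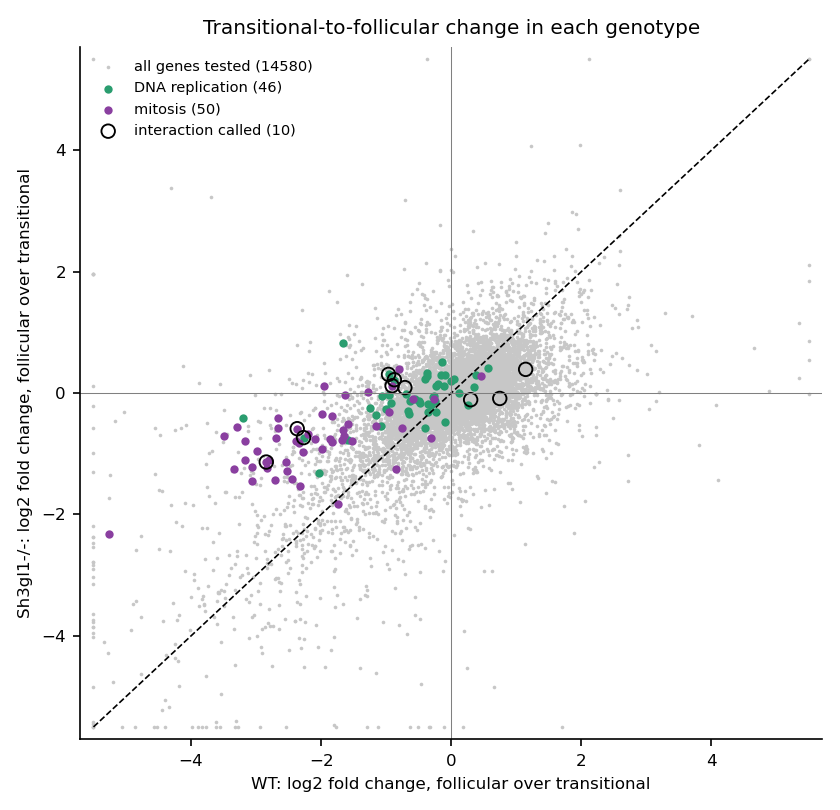
Change from transitional to follicular cells in WT mice (horizontal) and in Sh3gl1-/- mice (vertical), as log2 fold changes of 3 libraries against 3 in each genotype, for 14580 genes, with values beyond 5.5 drawn at the edge. Of the 50 mitosis genes 46 lie above the dashed line of equal change, and the 10 genes called for the interaction are ringed.

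The interaction itself was called for 10 genes (0.0686% of 14580), 7 higher (0.048%) and 3 lower (0.0206%), with adjusted p between 0.041 and 0.045 from edgeR's quasi-likelihood test. The 7 higher genes all serve DNA replication or the mitotic spindle and chromosomes: Rrm2, Top2a, Cdk1, Lig1, Mcm5, Ncapd2 and Ckap5. The 3 lower genes were the ATP-gated channel gene P2rx4 and the non-coding RNAs Malat1 and Gm15675. In all 10 the genotypes differed more in transitional than in follicular cells, as in 8654 of the 14580 genes tested. All 10 changed on maturation in WT cells and passed the test between genotypes in transitional cells, as 5.49% of all genes did, and 3 of them (Rrm2, Top2a and Gm15675) also changed on maturation in Sh3gl1-/- cells. The interaction is built from these same differences in the same libraries. Genes chosen by it therefore tend to pass such tests, and the shares are no separate support. In follicular cells, where 0.652% of all genes passed that test, these genes had adjusted p from 0.06 to 0.99. The genotypes did not overlap in follicular cells for 6 of the 10 (of all genes every Sh3gl1-/- library was lower for 7.92% and higher for 7.78%).

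Rrm2, the small subunit of ribonucleotide reductase, which makes deoxynucleotides, was at 62.8, 73.2 and 79.1 CPM in transitional WT cells and at 15.4, 17.1 and 12 CPM in follicular WT cells. In Sh3gl1-/- mice it was at 33.0, 27.8 and 33.0 CPM in transitional and 23, 15.9 and 17.5 CPM in follicular cells. Every transitional Sh3gl1-/- library was below every transitional WT library, and the follicular libraries of the genotypes overlapped. On the log2 scale Rrm2 fell by 2.27 in WT (SE 0.16) and by 0.73 in Sh3gl1-/- cells (SE 0.16), an interaction of 1.54 (SE 0.22, adjusted p = 0.041). Top2a, topoisomerase II alpha of dividing cells, was at 85.3, 138 and 128 CPM in transitional WT and 15.4, 18.5 and 14.9 CPM in follicular WT cells. Its Sh3gl1-/- values were 48.6, 39.3 and 52.0 CPM in transitional and 23.1, 24.3 and 16.2 CPM in follicular cells. The groups again separated in transitional cells and overlapped in follicular cells, and the interaction was 1.71 (SE 0.27, adjusted p = 0.041). Cdk1, the kinase that drives entry into mitosis, was at 14.5, 17.5 and 17.6 CPM in transitional WT against 6.59, 5.78 and 7.49 CPM in transitional Sh3gl1-/- cells. In follicular cells it was at 3.39, 3.17 and 3.0 CPM in WT and at 3.38, 5.02 and 4.78 CPM in Sh3gl1-/- cells. On the log2 scale it fell by 2.37 (SE 0.21) in WT, and the change in Sh3gl1-/- cells was -0.59 (SE 0.20, adjusted p = 0.086).

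Lig1, the ligase that joins Okazaki fragments, was at 40.3 ± 3.36 CPM in transitional and 20.6 ± 2.24 CPM in follicular WT cells (SD, n = 3), but at 19.7 ± 3.64 and 24.3 ± 2.04 CPM in Sh3gl1-/- cells. Mcm5, a subunit of the replicative helicase, was at 67.5 ± 9.66 and 36.8 ± 0.904 CPM in WT and at 41.3 ± 1.45 and 48.0 ± 8.02 CPM in Sh3gl1-/- cells (SD, n = 3). Ncapd2, a condensin subunit, fell from 44.3 ± 5.04 to 23.6 ± 2.11 CPM in WT and was at 24.7 ± 2.54 and 26.9 ± 1.04 CPM in Sh3gl1-/- cells (SD, n = 3). For each of these 3 genes transitional WT cells had the highest mean. Ckap5, a microtubule polymerase of the spindle, was at 97.6 ± 7.49 CPM in transitional WT cells, 59.5 ± 0.776 CPM in follicular WT cells and 73.2 ± 4.77 and 77.8 ± 2.97 CPM in the Sh3gl1-/- groups (SD, n = 3). The interactions of these 4 genes lay between 0.80 and 1.27.

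P2rx4 was at 39.1, 42.2 and 44.1 CPM in transitional WT cells, 75.1, 67.5 and 67.7 CPM in follicular WT cells, and 66.8 to 81.9 CPM in the 6 Sh3gl1-/- libraries. Transitional WT cells were the single low group, and the interaction was -0.84 (SE 0.13, adjusted p = 0.041). Malat1, an abundant nuclear RNA, was at 10412 to 11127 CPM in transitional WT cells and at 12672 to 14216 CPM in the other 9 libraries, with an interaction of -0.41 (SE 0.07). Its reads cannot be told apart from those of Gm37376, an entry on the opposite strand of the same locus that reached 7608 CPM, since the sources used here do not say if counting took account of strand. Gm15675, a long intergenic RNA on chromosome 1 (GRCm38, 130429781 to 130437191, minus strand), rose in WT cells from 89.2 ± 6.03 to 197 ± 9.66 CPM, and rose from 123 ± 10.2 to 161 ± 4.51 CPM in Sh3gl1-/- cells (SD, n = 3). It overlaps the antisense RNA Gm15674, which reached 64.0 CPM.

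**Figure D2:**
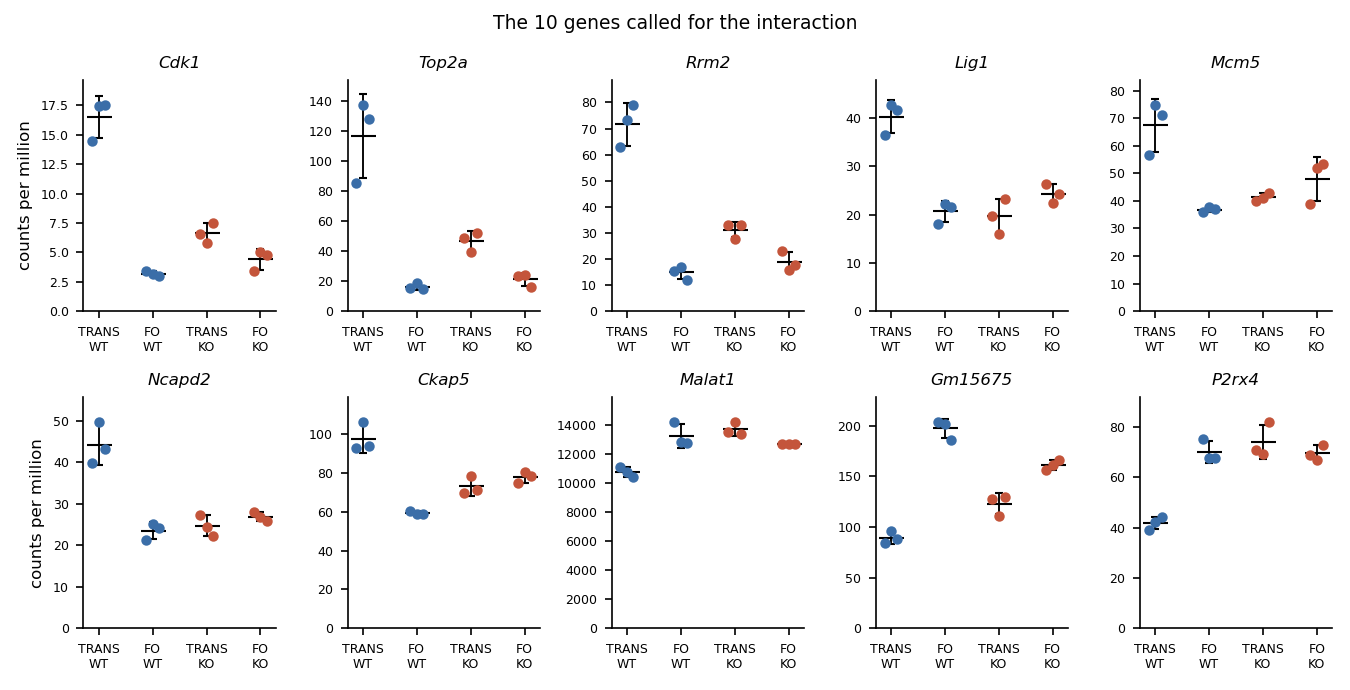
CPM of the 10 genes called for the interaction in the 12 libraries (points; TRANS transitional, FO follicular, KO Sh3gl1-/-), with the mean and SD of 3 libraries in each group (bars). Transitional WT cells stand apart from the other 3 groups, high for the 7 replication and mitosis genes and low for P2rx4 and Malat1. They are also lowest for Gm15675, which rises from transitional to follicular cells in both genotypes.

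These calls rested on the whole set of 12 libraries. The same replicate number marks a transitional and a follicular library that deviate together within a genotype, and with that number as a block within genotype 99 genes were called (0.679%), 66 higher (0.453%) and 33 lower (0.226%), including all 10. Leaving out 1 library gave 23 calls without transitional WT library 1, 16 without follicular WT library 3, 10 without transitional Sh3gl1-/- library 2 and 0 without any of the other 9 libraries (edgeR, with 1480 to 2160 genes at an unadjusted p under 0.05).

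Genes of mitosis carried the largest difference of the 47 pathway and family lists. All 50 members passed the filter on low counts, and 46 had a positive interaction with a median of 1.32, where the median of all genes tested was -0.02 and 47.7% were positive. At an unadjusted p under 0.05, 39 of the 50 were higher, a share of 78.0% against 6.54% of all genes. On maturation 43 fell in WT cells (median change -2.14) and 18 fell in Sh3gl1-/- cells (median -0.75), against 14.2% and 6.71% of all genes. In 41 of the 50, every transitional Sh3gl1-/- library was below every transitional WT library (12.8% of all genes, with 14.3% above), whereas the median difference between genotypes was -1.15 in transitional and 0.25 in follicular cells. Fewer dividing cells and less of this RNA per cell cannot be told apart in bulk libraries.

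By library, the mean log2 CPM of the mitosis genes was 3.87, 4.33 and 4.28 in transitional WT and 3.22, 2.95 and 3.17 in transitional Sh3gl1-/- cells. In follicular cells it was 2.01, 2.25 and 2.09 in WT and 2.49, 2.16 and 2.41 in Sh3gl1-/- cells. The transitional groups did not overlap and the follicular groups did. With the block within genotype, 13 members were called, among them the spindle kinesins Kif23 (interaction 2.09, adjusted p = 0.017) and Kif11 (interaction 2.08), the mitotic kinase Plk1 (2.26) and the chromosomal passenger Birc5 (1.95). These 3 last genes and Mki67, the gene of the proliferation marker Ki-67, were chosen after their values were seen. Mki67 had an interaction of 1.40 (SE 0.36) with an adjusted p of 0.13. The 4 members with a negative interaction, named only for that, were Cenpa, Smc4, Cdc20 and Espl1, at -0.42 to -0.08, and the direction of Cdc20 and Espl1 turned in some alternative fits.

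The replication and nucleotide synthesis genes moved in the same direction by less. Of 46 members, all tested, 38 had a positive interaction (median 0.39), as did 47.7% of all genes. At an unadjusted p under 0.05, 24 (52.2%) were higher, against 6.54% of all genes. In WT cells 25 fell on maturation and 1 rose, and in Sh3gl1-/- cells 4 fell. Of all genes 14.2% fell and 11.7% rose in WT, and 6.71% fell in Sh3gl1-/- cells. Pola1, the catalytic subunit of DNA polymerase alpha, was at 43.3, 43.7 and 43.7 CPM in transitional WT and 22.8, 21.1 and 23.6 CPM in follicular WT cells. Its 6 Sh3gl1-/- libraries lay between 25.3 and 33.2 CPM, and the interaction of 0.92 (SE 0.16) had an adjusted p of 0.057, or 0.048 with the block. The block also called Mcm3, Mcm7 and Tyms, which were named after their values were seen. The mean log2 CPM of the list was 4.97 to 5.19 in transitional WT cells and 4.65 to 4.69 in transitional Sh3gl1-/- cells, and in follicular cells it was 4.47 to 4.54 in WT and 4.53 to 4.61 in Sh3gl1-/- cells.

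The promoters of these genes are shown because the genes move together across the 4 groups. Cell-cycle genes are known to carry CCAAT boxes, sites for E2F and the cell-cycle homology region (CHR). The 250 bases before the RefSeq start were searched on both strands for CHR (TTTGAA or TTCGAA), the CCAAT box (CCAAT) and E2F (TTTCCCGC or TTTGGCGC), none of which contains another. Windows were found for 42 of the 50 mitosis genes. Of these 18 held CHR (42.9%), 32 held CCAAT (76.2%) and 2 held E2F (4.76%). The shares were 17.4%, 34.5% and 1.35% of all 27025 genes with a window, and 13.2%, 37.0% and 2.65% of the 9730 tested genes with one. Windows were found for 38 of the 46 replication genes, of which 6 held E2F (15.8%), 24 held CCAAT (63.2%) and 6 held CHR (15.8%, near the share of all genes). Matches are letters in these windows and not shown to be bound. The 150 bases before the start follow for 5 of the 7 called genes of these functions, among them Lig1 as the 1 without a match, from RefSeq on GRCm38.p6 with the matches in capitals.
Top2a, chr11:99024190-99024339, minus strand: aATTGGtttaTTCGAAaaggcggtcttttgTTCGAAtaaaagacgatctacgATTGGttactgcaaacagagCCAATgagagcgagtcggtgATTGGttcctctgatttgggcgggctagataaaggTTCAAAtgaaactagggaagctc
Cdk1, chr10:69352913-69353062, minus strand: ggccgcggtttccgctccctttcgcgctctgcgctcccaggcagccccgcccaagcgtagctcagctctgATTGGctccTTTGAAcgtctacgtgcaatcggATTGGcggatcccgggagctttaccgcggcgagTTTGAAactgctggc
Mcm5, chr8:75109359-75109508, plus strand: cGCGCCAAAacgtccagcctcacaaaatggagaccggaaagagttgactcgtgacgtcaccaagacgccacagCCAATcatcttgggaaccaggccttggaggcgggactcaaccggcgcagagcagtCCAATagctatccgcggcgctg
Rrm2, chr12:24708104-24708253, plus strand: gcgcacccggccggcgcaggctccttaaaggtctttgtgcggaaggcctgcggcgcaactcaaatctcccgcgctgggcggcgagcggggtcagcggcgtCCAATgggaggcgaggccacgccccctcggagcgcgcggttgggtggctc
Lig1, chr7:13277025-13277174, plus strand: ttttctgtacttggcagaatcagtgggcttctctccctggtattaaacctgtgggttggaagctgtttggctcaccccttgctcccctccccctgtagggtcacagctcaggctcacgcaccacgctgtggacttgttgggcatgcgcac
Top2a held 3 CHR and 4 CCAAT matches in these bases, Cdk1 held 2 of each, Mcm5 held 2 CCAAT and 1 E2F match, and Rrm2 held 1 CCAAT match. Ncapd2, not printed, held 1 CHR, 2 CCAAT and 1 E2F match and Ckap5 held 1 CHR and 1 CCAAT match. Lig1 has 3 windows in RefSeq, of which the first is shown.

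Lists of growth and metabolism had smaller positive medians, and their groups did not share 1 order. For reference, 6.54% of all genes were higher and 7.13% lower at an unadjusted p under 0.05. Of 28 glycolysis and pentose phosphate genes tested, 25 had a positive interaction (median 0.28), and 9 (32.1%) were higher at an unadjusted p under 0.05. In WT cells 10 of them fell on maturation and 1 rose, and in Sh3gl1-/- cells 1 fell and 4 rose. Of all genes 14.2% fell and 11.7% rose in WT, and 6.71% fell and 3.7% rose in Sh3gl1-/- cells. Pkm, the last enzyme of glycolysis, was at 488, 511 and 492 CPM in transitional WT cells and at 321 to 404 CPM in the other 9 libraries, with an interaction of 0.48 (SE 0.13, adjusted p = 0.13). Ribosome biogenesis factors had a median interaction of 0.27, with 12 of 26 (46.2%) higher at an unadjusted p under 0.05, among them the nucleolar chaperone Nolc1 at 0.49. Proteasome subunits had a median of 0.15 with 16 of 46 (34.8%) higher, and translation factors a median of 0.14 with 16 of 64 (25%) higher and 4 (6.25%) lower. Phgdh, the first enzyme of serine synthesis, changed in opposite directions: it fell by 0.45 in WT cells (SE 0.11) and rose by 0.39 in Sh3gl1-/- cells (SE 0.11). Its transitional values were 99.8, 134 and 109 CPM in WT and 65.8, 59.8 and 63.3 CPM in Sh3gl1-/- mice, and its interaction of 0.84 had an adjusted p of 0.057, or 0.017 with the block. Cholesterol and fatty acid synthesis genes had a median of 0.20, with 28 of 33 positive, but 2 (6.06%) higher at an unadjusted p under 0.05, a share near that of all genes. The cytosolic citrate lyase Acly, with an interaction of 0.64, was called with the block (adjusted p = 0.031) and not without it (adjusted p = 0.17).

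Cytosolic ribosomal protein genes rose on maturation in both genotypes, 60 of 84 in WT and 72 of 84 in Sh3gl1-/- cells. Their median change was 0.40 in WT and 0.50 in Sh3gl1-/- cells, and the median interaction was 0.11 with 73 of 84 positive. Among all genes 11.7% rose in WT and 3.7% in Sh3gl1-/- cells. At an unadjusted p under 0.05, 5 of the 84 (5.95%) were higher and 1 (1.19%) was lower, against 6.54% and 7.13% of all genes. Rpl37a, of the large subunit, was at 386 to 398 CPM in transitional and 414 to 521 CPM in follicular WT cells, and at 358 to 384 and 578 to 635 CPM in Sh3gl1-/- cells. Its interaction of 0.49 (SE 0.12) did not pass the test (adjusted p = 0.13). The genotypes did not overlap in follicular cells, where the log2 difference was 0.41 (SE 0.09, adjusted p = 0.050). Mitochondrial ribosomal proteins (median interaction 0.07) and respiratory chain subunits encoded in the nucleus (0.03) or the mitochondrion (-0.11) lay near the median of all genes.

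**Figure D3:**
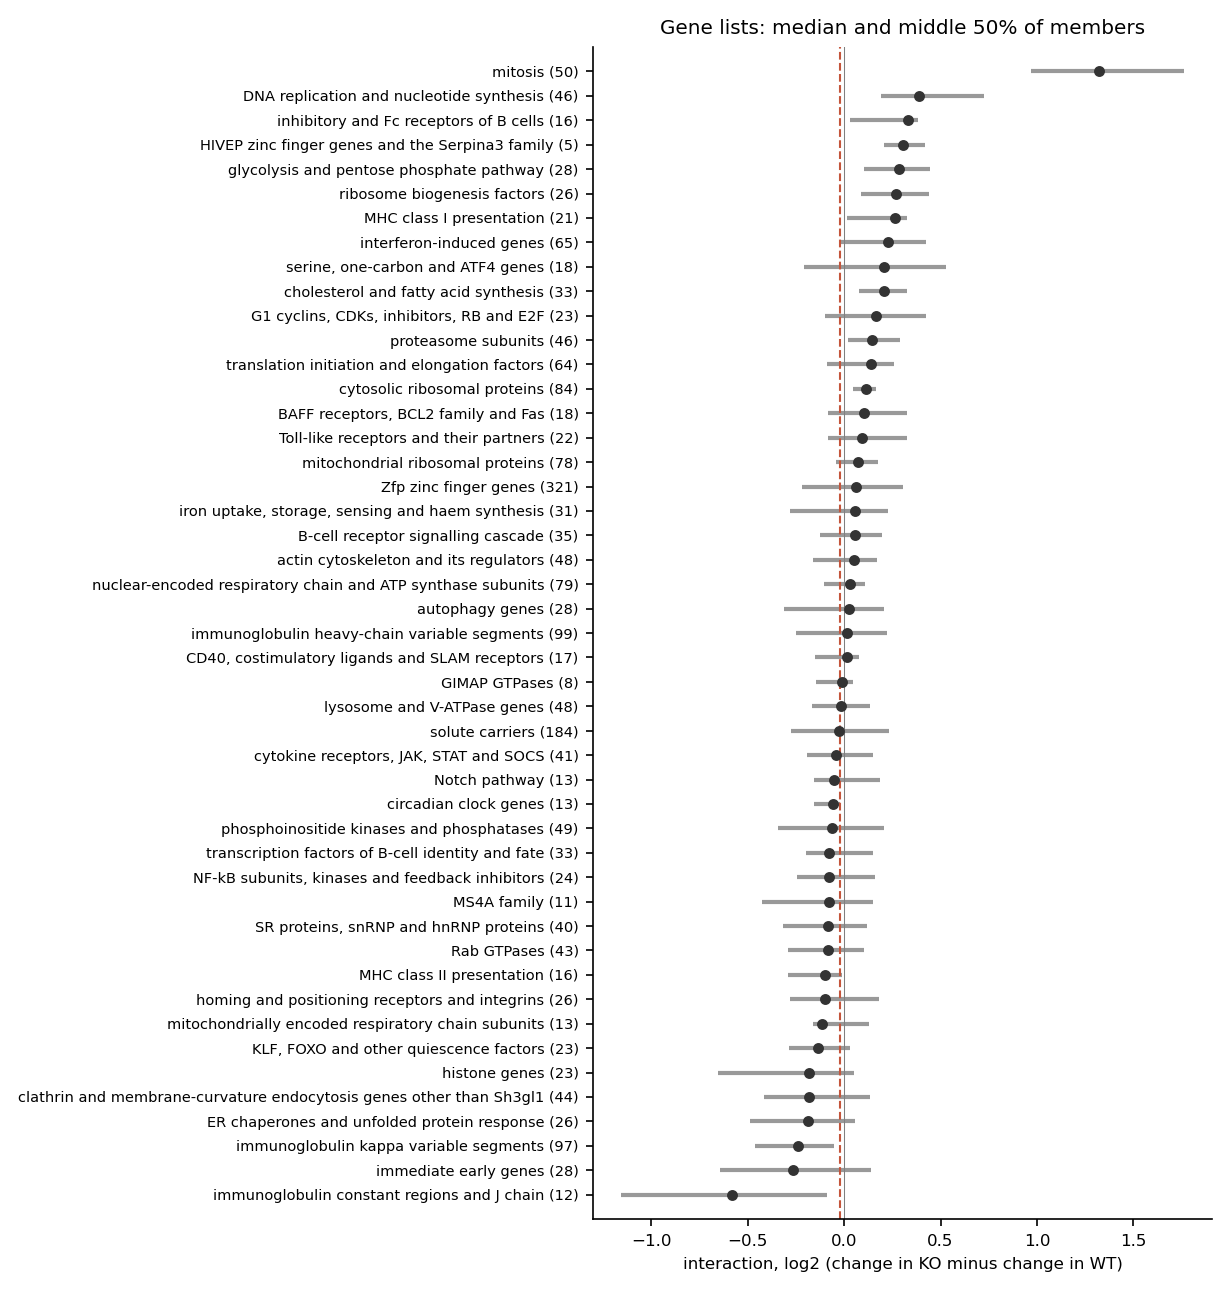
Median interaction (points) and the middle 50% of members (lines) for the 47 gene lists, with the number of members tested in brackets. The dashed line is the median of all genes tested, -0.02, and mitosis (1.32) lies farthest from it, with immunoglobulin constant regions and J chain (-0.58) at the other end.

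Interferon-induced genes fell on maturation in 44 of 65 cases in WT and 17 of 65 in Sh3gl1-/- cells. Their median interaction was 0.23, and 10 (15.4%, against 6.54% of all genes) were higher at an unadjusted p under 0.05. Calls were fewer in Sh3gl1-/- cells for all genes too, where 14.2% fell in WT and 6.71% in Sh3gl1-/- cells. The guanylate-binding GTPase Gbp3 was at 70.3, 66.8 and 79.4 CPM in transitional WT cells and at 27.1 to 42 CPM in the other 9 libraries. Gbp2, of the same family, was at 67.6 to 75.9 CPM in transitional WT cells and at 51.8 to 51.9 CPM in follicular Sh3gl1-/- cells, between the follicular WT level of 37.2 to 45.4 CPM and the transitional WT level. Neither passed the test for the interaction (adjusted p = 0.072 for Gbp3 and 0.057 for Gbp2), and both were called with the block (adjusted p = 0.024 and 0.042).

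The level of this list moved with 1 mouse of each genotype. WT mouse 3 and Sh3gl1-/- mouse 2 had Xist RNA at 424 to 465 CPM, where the other libraries had 0.302 to 6.91 CPM, and the Y-linked Ddx3y was at 0 to 1.05 CPM in them and at 236 to 308 CPM in the others. Their libraries had the highest mean log2 CPM of interferon genes in each group, 6.15 and 5.43 in WT and 5.90 and 5.4 in Sh3gl1-/- cells. The other libraries lay at 5.61 to 5.81 in transitional and 4.99 to 5.11 in follicular cells. The median interaction was 0.06 without transitional WT library 3, 0.42 without follicular WT library 3 and 0.27 in male mice alone. With 1 such mouse in each genotype, sex and the single animal cannot be told apart. Genes of MHC class I presentation had a median interaction of 0.26 with 9 of 21 (42.9%) higher at an unadjusted p under 0.05, including the peptide transporter Tap2 (0.60), which was called with the block.

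MHC class II presentation genes rose on maturation, 13 of 16 in WT and 9 of 16 in Sh3gl1-/- cells, with 1 that fell in each. Their median interaction was -0.10. Among all genes 11.7% rose and 14.2% fell in WT, and 3.7% rose and 6.71% fell in Sh3gl1-/- cells. Ciita, the master regulator of class II genes, was at 220.4, 239 and 234 CPM in transitional WT and 389.7, 346 and 401 CPM in transitional Sh3gl1-/- cells, and rose in both genotypes to 404 to 418 and 497 to 555 CPM. The class II chain gene H2-Ab1 rose by 0.56 (SE 0.12) in WT, and its change in Sh3gl1-/- cells was -0.10 (SE 0.12). Its interaction of -0.66 was called with the block (adjusted p = 0.031). H2-Ab1 and Tap2 lie on chromosome 17, as does Sh3gl1, but outside the 5 Mb on either side of it. Within those 5 Mb 68 genes were tested, with a median interaction of 0.07, and 7 (10.3%, against 6.54% of all genes) were higher and 9 (13.2%, against 7.13%) lower at an unadjusted p under 0.05. One of them is Satb1, a chromatin organizer, with an interaction of -0.66 (SE 0.16) that was called with the block (adjusted p = 0.038). The part of this stretch of chromosome in the result was not tested.

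**Figure D4:**
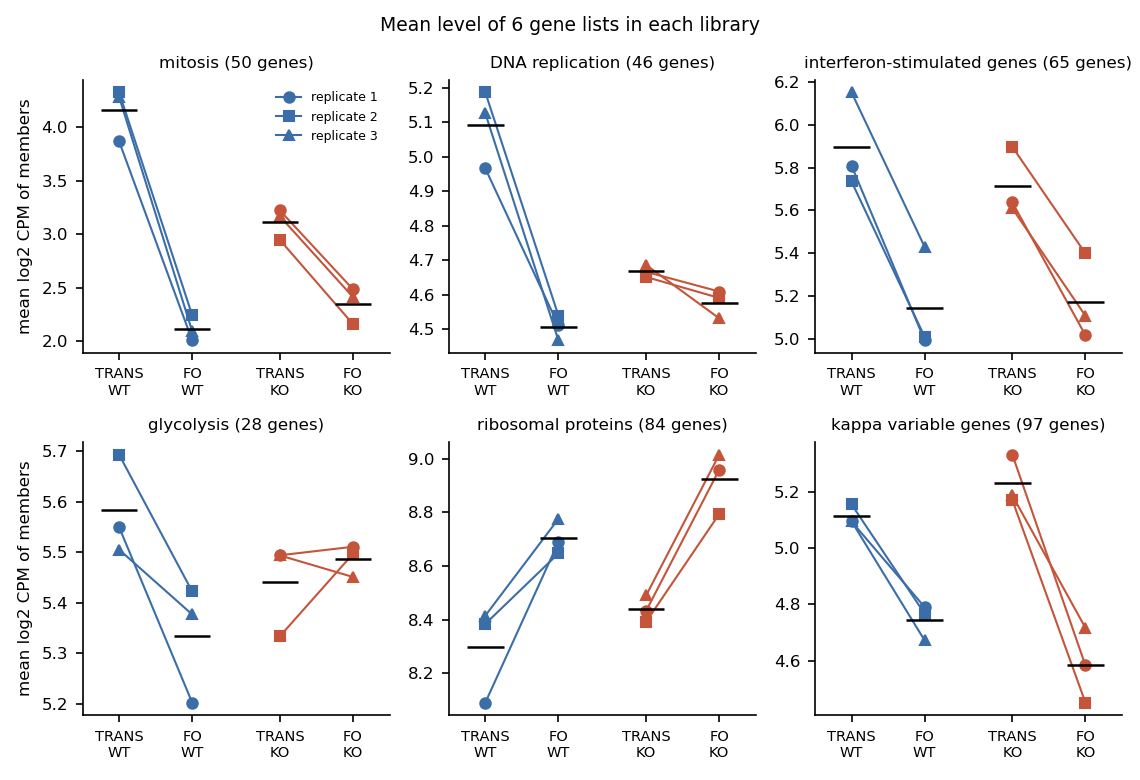
Mean log2 CPM of the members of 6 gene lists in each library, with lines joining libraries of the same replicate number and black bars at the group means. The mitosis and replication genes separate the genotypes in transitional cells, and the 3 symbols for replicate number show the order of the mice within each group for the interferon-induced genes.

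Among the 47 pathway and family lists, immunoglobulin constant regions had the lowest median, and kappa variable segments the third lowest after immediate early genes. Of 97 kappa variable segments tested, 77 had a negative interaction (median -0.24), as 52.3% of all genes did, and 19 were lower at an unadjusted p under 0.05, against 7.13% of all genes. They fell on maturation in 30 cases in WT and 48 in Sh3gl1-/- cells. Heavy-chain variable segments had a median of 0.02, with 50 of 99 falling in WT and 49 in Sh3gl1-/- cells. The shares of all genes that fell were 14.2% in WT and 6.71% in Sh3gl1-/- cells. The constant regions and the J chain had a median of -0.58 over 12 genes. Igkc, the kappa constant region, was at 10348, 10189.8 and 10179 CPM in transitional WT cells and at 14840.2, 10578 and 20267 CPM in transitional Sh3gl1-/- cells. It was called with the block (interaction -0.71, adjusted p = 0.031) and not without it (-0.75, adjusted p = 0.17). Some of the segments are closely alike in sequence, so reads can be shared between those in counting.

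Plasma cell genes moved with these libraries. Jchain, which joins secreted IgM and IgA, was at 662, 597 and 415 CPM in transitional WT cells and at 2863, 1097 and 4664 CPM in transitional Sh3gl1-/- cells. The summed level of the 10 plasma cell markers was 1478 to 1596 CPM in transitional WT, 1978 to 5552 CPM in transitional Sh3gl1-/-, 821 to 839 CPM in follicular WT and 696 to 754 CPM in follicular Sh3gl1-/- cells. The order of the 3 transitional Sh3gl1-/- libraries was the same for Igkc, Jchain and the summed markers. Most of the sums in these libraries (3708, 1978 and 5552 CPM) was Jchain. As mean log2 CPM the markers overlapped, at 4.30 to 4.58 in transitional WT and 4.22 to 5.37 in transitional Sh3gl1-/- cells. In transitional cells 1 of the 10 was above WT and 1 below it without overlap (14.3% and 12.8% of all genes). Jchain is counted in both lists, and the part of plasma cells in the immunoglobulin result was not tested.

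Markers of other B-cell subsets and of other cells varied with the groups. The 10 transitional and immature markers summed to 927 to 1073 CPM in transitional WT and 543 to 861 CPM in transitional Sh3gl1-/- cells, and to 392 to 481 and 315 to 329 CPM in follicular cells. The 9 marginal zone markers summed to 1052 to 1073 CPM in transitional WT and 774 to 855 CPM in transitional Sh3gl1-/- cells, and to 1114 to 1345 and 869 to 1061 CPM in follicular cells. These sums did not overlap between the genotypes in either state. As mean log2 CPM of the tested members both lists overlapped between the genotypes in either state. The 7 germinal centre markers summed to 140.2 to 153 CPM and 185 to 198 CPM in the transitional groups and the 9 B-1 cell markers to 275 to 388 and 291 to 341 CPM. In follicular WT and Sh3gl1-/- cells the sums were 132 to 148 and 170 to 181 CPM, and 164 to 180 and 169 to 214 CPM. The B-1 markers had a median interaction of 0.55 with 8 of 9 positive, and 2 (22.2%) higher at an unadjusted p under 0.05. For the germinal centre markers it was -0.79 with 5 of 7 negative, and 0 higher or lower at that p. The 9 erythroid markers summed to 4625 to 9900.3 CPM in transitional and 3104 to 9665 CPM in follicular Sh3gl1-/- cells, against 2350 to 4095 and 1489 to 4003 CPM in WT. The 14 neutrophil markers summed to 135 to 655 CPM and 204 to 895 CPM in the 2 Sh3gl1-/- groups, against 64.3 to 114 and 82.1 to 195 CPM in WT, and Sh3gl1-/- mouse 1 was highest in both. The 12 monocyte and macrophage markers were high in transitional cells of both genotypes, at 579 to 704 CPM in WT and 540.2 to 963 CPM in Sh3gl1-/-, and at 124 to 307 CPM in follicular cells. The 15 T-cell markers summed to 257 to 320 CPM in follicular WT and 402 to 500 CPM in follicular Sh3gl1-/- cells, without overlap, and to 199 to 265 and 249 to 353 CPM in transitional cells. The 11 NK-cell markers summed to 41.7 to 129 CPM over all libraries. Their part in the interactions was not tested.

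**Figure D5:**
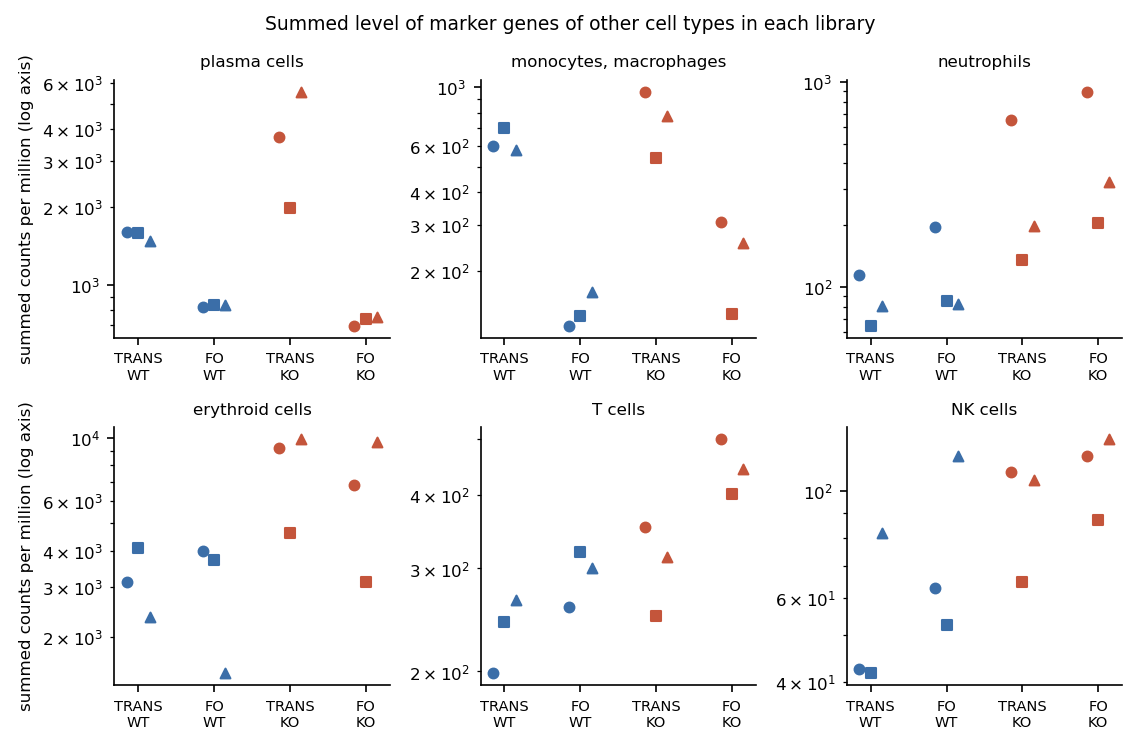
Summed CPM (log axis) of marker genes of 6 other cell types in each library, with circles, squares and triangles for replicates 1, 2 and 3. The plasma cell sum, most of it Jchain there, is highest in transitional Sh3gl1-/- cells (1978 to 5552 CPM). The monocyte and macrophage sum is highest in transitional cells of both genotypes.

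The non-coding classes of the annotation lay below the protein-coding genes. Among 769 genes annotated as TEC, a provisional class of GENCODE, 565 had a negative interaction (median -0.34), and among 87 sense-intronic genes 67 did (median -0.29). Antisense RNAs had a median of -0.18 over 502 genes, whereas 11477 protein-coding genes had a median of 0.01. The mean log2 CPM of the TEC genes was 1.27 to 1.39 in transitional WT cells and 1.59 to 1.69 in the other 9 libraries. Transitional WT cells were the single low group, as for Malat1.

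Receptors and signalling were compared last. The B-cell receptor cascade had a median interaction of 0.06 over 35 genes, with 15 members falling on maturation in WT and 6 in Sh3gl1-/- cells. Of all genes 14.2% fell in WT and 6.71% in Sh3gl1-/- cells. At an unadjusted p under 0.05 for the interaction, 2 members (5.71%) were higher and 1 (2.86%) lower, against 6.54% and 7.13% of all genes. Inhibitory and Fc receptors of B cells had a median of 0.33 over 16 genes, 5 of them (31.2%) higher at an unadjusted p under 0.05, among them Cd72 (0.44) and Cd22 (0.39). Tnfrsf13c, the BAFF receptor, was at 989.9, 905 and 868 CPM in transitional WT cells and at 518, 668 and 526 CPM in transitional Sh3gl1-/- cells, with 438 to 573 CPM in the 6 follicular libraries. Transitional WT cells were again apart from the rest. It fell by 0.82 (SE 0.11) in WT, its change in Sh3gl1-/- cells was -0.26 (SE 0.11, adjusted p = 0.18), and the interaction of 0.56 had an adjusted p of 0.17, or 0.030 with the block. Ccnd2, the G1 cyclin induced by receptor signals, was at 333, 430.1 and 426 CPM in transitional WT and 133 to 224 CPM in the other 9 libraries (interaction 0.88, adjusted p = 0.098, or 0.017 with the block). Il2ra, the IL-2 receptor alpha chain, was at 24 to 32.3 CPM in transitional WT and 9.20 to 15.6 CPM in transitional Sh3gl1-/- cells. Its interaction of 1.55 (SE 0.37) had an adjusted p of 0.12, or 0.031 with the block. Il2ra does not stand for its list of cytokine receptor, JAK, STAT and SOCS genes. The 41 tested had a median interaction of -0.04. At an unadjusted p under 0.05, 1 of them (2.44%) was higher and 3 (7.32%) were lower.

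Of genes that rose on maturation, some were higher in transitional Sh3gl1-/- than in transitional WT cells. Ccr6, a chemokine receptor and one of the 15 follicular markers (log2 difference 0.98, SE 0.18, adjusted p = 0.0092), was at 60.5, 70.6 and 45.8 CPM in transitional WT and 129, 90.0 and 131 CPM in transitional Sh3gl1-/- cells, and at 168 to 263 CPM in follicular cells. It rose by 1.74 in WT cells (SE 0.18) and by 1.02 in Sh3gl1-/- cells (SE 0.18), and the interaction of -0.72 was called with the block (adjusted p = 0.017). Gimap1, a GTPase of lymphocyte survival, rose by 1.2 (SE 0.15) in WT cells, and its change in Sh3gl1-/- cells was 0.41 (SE 0.14, adjusted p = 0.087). Its interaction of -0.79 had an adjusted p of 0.13, or 0.017 with the block, but the 8 GIMAP genes had a median of -0.01 with 4 positive. The follicular markers as a list had a median interaction of -0.01, with 3 higher and 1 lower at an unadjusted p under 0.05. In transitional cells 2 of the 15 were above WT and 6 below it without overlap, so Ccr6 does not stand for the list. Endocytosis genes other than Sh3gl1 had a median of -0.18 over 44 genes, with 6 (13.6%) lower and 2 (4.55%) higher at an unadjusted p under 0.05. The clathrin pit initiators Fcho1 and Fcho2 were lowest in this list by p after Itsn1, with interactions of -0.54 each and of -0.89 for Itsn1, and adjusted p between 0.19 and 0.24. Immediate early genes had a median of -0.26 over 28 genes and ER chaperones and the unfolded protein response -0.19 over 26. Lists near the median of all genes included NF-kB (-0.08), Notch (-0.05), Rab GTPases (-0.08), lysosome (-0.02), phosphoinositide enzymes (-0.07), actin (0.05), autophagy (0.02), iron (0.06) and solute carriers (-0.03). Some of them had shares lower at an unadjusted p under 0.05 like that of endocytosis: actin 14.6%, autophagy 14.3% and NF-kB 12.5%. The shares higher in these 3 lists were 6.25%, 7.14% and 8.33%. Of phosphoinositide enzymes 10.2% were lower and 12.2% higher, against 7.13% and 6.54% of all genes.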

How the data were processed

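RNA of B cells was measured in 18 libraries, of which the 12 labelled transitional or follicular were compared. Genotype, state and replicate number came from the labels. The authors deposited 1 table with expected counts, TPM and FPKM values for each gene. The submitters' processing notes name cutadapt 1.9.1, STAR 2.5.2a and RSEM 1.3.0 with GRCm38, whereas the study's methods name TopHat and Cufflinks. The labels name a stranded mRNA kit. RSEM divides reads that match several genes between them, and a strand setting is not given in the sources used here. The deposited expected counts are not scaled for depth, and were rounded here. The deposited TPM and FPKM values were not used in tests.

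Symbols and positions came from GENCODE M21 on GRCm38 for 51633 of 51912 identifiers. In R 4.3.3, edgeR 4.0.16 was run with TMM scaling, filterByExpr by group, 1 coefficient for each of the 4 groups, glmQLFit and glmQLFTest, with Benjamini-Hochberg adjustment over 14580 genes. CPM use TMM-scaled library sizes, and log2 CPM a prior count of 2. Each SE is the log2 fold change divided by the square root of its F statistic. DESeq2 1.42.0 was an alternative. The other alternatives were RLE and upper-quartile scaling, 2 filters on low counts, all 18 libraries, 2 replicate blocks and leaving out each library. The script was tested on simulated counts.

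The labels do not say that a replicate number marks a mouse. Within a genotype, the deviations of same-numbered transitional and follicular libraries from their group means correlated at 0.11 to 0.28 in all 6 pairs, and those of different numbers at -0.21 to 0.04, so the number was taken to pair them and the blocked value is given where it changes a call. Each pair of libraries of a group differed by more than sampling noise (chi-square per degree of freedom 9.57 to 29.1). Where the 3 libraries of a group come from separate mice the p-values measure the spread between mice. Intervals and floors cover counting error only.

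Members and lists were chosen with earlier results of these data known. Named genes are Sh3gl1, every gene called for the interaction, up to 4 members of a list with the lowest p and at least 10 counts in 1 library, and the cell type markers; others are marked as chosen after their values were seen. Promoters are RefSeq windows on GRCm38.p6, and the first window listed for a gene was used. A few results are not reported here.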

Additional observations from a re-analysis of the deposited data

Results flagged for a closer look

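For 10 genes the change from transitional to follicular cells differed between the genotypes by the test of the difference itself (edgeR's quasi-likelihood test, adjusted p 0.041 to 0.045). On the log2 scale the interaction was 1.54 for Rrm2, 0.80 for Ckap5, 1.71 for Top2a, 1.27 for Lig1, 1.03 for Ncapd2, 1.78 for Cdk1 and 1.09 for Mcm5, each of which fell in WT cells and fell less or did not pass the test in Sh3gl1-/- cells. It was -0.84 for P2rx4, -0.75 for Gm15675 and -0.41 for Malat1. In all 10 genes every transitional Sh3gl1-/- library lay on one side of every transitional WT library, where 12.8% of all genes tested had every Sh3gl1-/- library lower and 14.3% every one higher. That separation follows in part from choosing the genes by the interaction in the same libraries. In follicular cells the genotypes also did not overlap for 6 of the 10. Groups of 3 were not searched for single libraries that stand apart.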

How the results depend on the processing

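Across 21 alternatives the interactions of Cdc20 and Espl1 changed direction, neither of them called in any, and those of the other named genes that were followed did not. Espl1 (-0.08) was at 0.079 with the replicate block and 0.077 with the block within genotype, and between -0.62 and 0.49 without 1 library, and Cdc20 (-0.40) between -1.04 and 0.028 without 1 library, the highest of both without follicular WT library 1. Of the list medians, 1242 moved by less than the spread between libraries and 81 by more. The number of interaction calls did change. In place of 10, DESeq2 called 365 genes, a filter of at least 1 count 462, the replicate number as a block 20, the block within genotype 99 and the fit of all 18 libraries 0 (edgeR, with 1408 genes at an unadjusted p under 0.05). All 10 genes were among the calls of DESeq2, of both blocks and of the filter at 1 count, and the other scalings gave 11 and 12 calls. Leaving out 1 library gave 0 to 23 calls: 23 without transitional WT library 1, 16 without follicular WT library 3, 10 without transitional Sh3gl1-/- library 2, of which 4 were the same, and 0 without any of the other 9, with 1480 to 2160 genes at an unadjusted p under 0.05. Male mice alone, a setting added after the data were seen, gave 0 calls with 1850 genes at an unadjusted p under 0.05, and 841 maturation calls in Sh3gl1-/- cells in place of 1518. Without 1 library the maturation calls were 2444 to 3773 in WT (2444 without follicular WT library 1) and 986 to 1647 in Sh3gl1-/- cells (986 without follicular Sh3gl1-/- library 3, 992 without transitional Sh3gl1-/- library 2). The block within genotype gave 4246 and 1949 maturation calls. The median interaction of the mitosis genes stayed between 1.19 and 1.51, and that of the replication genes between 0.37 and 0.47. The cause of the changes in the number of calls was not tested. The biological coefficient of variation between libraries was 19.5%, and genes with few counts are limited by depth as well.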
